A study of Homo sapiens with 9 samples.

Results

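Antigen processing and HLA genes were described here in HMEC-1, an established, immortalised line of human dermal microvascular endothelial cells, treated with TMAO (trimethylamine-N-oxide, a gut microbe-derived metabolite of dietary choline and carnitine). The members were 32 genes chosen by name for their role in HLA presentation, with earlier results of these data known: HLA-B, HLA-C, HLA-E, HLA-F, HLA-G and B2M, the immunoproteasome and PA28 genes PSMB8, PSMB9, PSMB10, PSME1 and PSME2, the transport, trimming and loading genes TAP1, TAP2, TAPBP, TAPBPL, ERAP1, ERAP2, CALR, CANX and PDIA3, the regulators NLRC5, CIITA and RFX5, the NK cell ligands MICA, MICB, ULBP1, ULBP2 and ULBP3, and the class II pathway genes CD74, HLA-DMA, HLA-DRA and HLA-DPA1. The choice was therefore not independent of the data. All 32 were among the 29740 gene symbols of the count table, and 29 passed the expression filter that kept 14740 genes for testing. HLA-G, HLA-DRA and HLA-DPA1 did not pass it. RNA was sequenced from untreated cells (CTRL) and from cells given 50 µM TMAO for 24H or 48H, with 3 libraries in each group, and all groups were the same line, with low-serum medium during the TMAO treatment. The medium of the controls is not given in the sources used here. The paper states that controls of the 24H and 48H time-points were pooled for sequencing, and the control libraries are not marked by time-point. Treatment and time in culture therefore cannot be told apart in a difference from CTRL. Nothing in the labels says whether the 3 libraries of a group came from separate cultures, so p-values measure only the spread between these libraries, which may be technical.

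HLA class I molecules carry peptides from the inside of the cell to its surface, where CD8 T cells read them. Proteasomes cut proteins into peptides, the TAP transporter moves these into the endoplasmic reticulum, and a loading complex fits them onto a class I heavy chain paired with beta-2-microglobulin (B2M). Endothelial cells express class I constitutively, and interferons raise the heavy chains, TAP and the immunoproteasome subunits together, in part through the transactivator NLRC5. Class II molecules, which present peptides to CD4 T cells, depend on the transactivator CIITA, and on endothelial cells they appear mainly after interferon gamma.

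The upstream sequences of the classical class I genes hold a short stretch known as enhancer A and the interferon-stimulated response element (ISRE), which is why they are shown first, beside TAP2 as a transporter gene with an ISRE match. The class I windows are 60 bases long, the TAP2 window is its match with 20 bases on each side, and all come from RefSeq on GRCh38.p14. For HLA-C and HLA-F, the window is the best ungapped match to the HLA-B window within the 250 bases before the annotated start, with 46 and 36 of 60 bases identical to HLA-B (76.7% and 60%). Capitals mark matches on either strand to an ISRE core (GAANNGAAA) or to an NF-kB motif (GGGANTCCC), written 5′ to 3′ on the gene's strand.
HLA-B, chr6:31357310-31357369 (minus strand): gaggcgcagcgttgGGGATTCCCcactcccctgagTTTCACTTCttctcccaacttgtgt
HLA-C, chr6:31272219-31272278 (minus strand): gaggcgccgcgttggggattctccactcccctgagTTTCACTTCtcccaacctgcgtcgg
HLA-F, chr6:29723243-29723302 (plus strand): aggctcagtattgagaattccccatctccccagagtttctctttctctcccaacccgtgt
TAP2, chr6:32838774-32838822 (minus strand): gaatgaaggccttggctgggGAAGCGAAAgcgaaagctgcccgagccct
HLA-B held both motifs without overlap, with the NF-kB match at 176 to 168 bases and the ISRE core at 155 to 147 bases before its start. HLA-C held the ISRE core alone, and HLA-F held neither spelling in its window. The HLA-F window does hold tttctctttc, a match to the longer ISRE spelling, which was not searched for. The lack of capitals therefore does not show that HLA-F lacks an ISRE. For NF-kB, too, only the spelling given was searched. Where HLA-B has its NF-kB match, the HLA-C window reads gggattctc. The lack of a match does not show that HLA-C or HLA-F lacks an NF-kB site. Of the 32 members, 27 had an entry in the promoter table, and 8 of these (HLA-B, HLA-C, TAP2, TAPBPL, ERAP1, ERAP2, MICA and MICB) held the ISRE core as spelled here, against 8% of all genes in the table. Genes that match only the longer ISRE spelling are not in these counts. The GAS motif, the interferon gamma-activated site (TTCNNNGAA), occurred in 2 members, TAP1 and PSMB8, against 8.09% of genes, and the NF-kB spelling in HLA-B alone, against 0.960%. The CCAAT box bound by NF-Y, a partner of NLRC5 and CIITA, occurred in 16 members against 37% of genes. A match describes letters in this window and not a bound site.

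Total counts ranged from 25205756 to 36927373 per library. TMAO 24H replicate 1 had 31.5% of its counts in 6 genes of ribosomal RNA, and the other 8 libraries had 1.64% to 7.46%. Values below are CPM, read counts scaled to library size after TMM normalisation, which corrects for such an uneven load, and the verbs rose and fell mark a Benjamini-Hochberg adjusted p under 0.05 over all 14740 genes in edgeR's quasi-likelihood test. All 12 endothelial markers examined passed the expression filter in HMEC-1. Their CTRL means ran from 1.65 CPM for CLDN5 and 12.1 for ESAM to 343 for PECAM1 and 698 for CDH5. The summed level of the 12 was 2779 to 3160 CPM in CTRL and 2473 to 2720 CPM at 48H. Of the 12, 7 fell at 48H, against 780 of all 14740 tested genes. Of 12 leukocyte and antigen-presenting cell markers, MS4A1, CD3E and CD1C had no counts, and the sum of all 12 was 2.16 to 2.58 CPM over the 9 libraries. The sum of 8 fibroblast and mural markers was 964 to 1121 CPM in CTRL and 619.9 to 677 CPM at 48H, where COL1A1 and COL1A2 fell. Most of this sum was COL1A1 and COL1A2, with CTRL means of 678 and 295 CPM. PDGFRB and COL3A1 had CTRL means of 48.0 and 33.6 CPM, and RGS5 and PDGFRA 3.59 and 0.347. LUM and DCN were at or below 0.0737 CPM in every library. Whether the fall of these marker sums has a part in the changes described below was not tested.

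At 24H, no member passed the test. edgeR called 0 of the 29 tested members against CTRL, where it called 14 genes (0.095% of all tested), all lower, and DESeq2 also called 0 members. At an unadjusted p under 0.05, 2 members were lower and 0 higher, against 659 and 408 of 14740 genes. These were the NK cell ligands MICA (log2 fold change -0.20, 95% interval -0.35 to -0.050, adjusted p = 0.546) and ULBP2 (log2 fold change -0.25, 95% interval -0.44 to -0.060, adjusted p = 0.546). The median log2 fold change of the members was -0.031, beside -0.00042 over all genes. The intervals of the 4 tested HLA heavy chains all lay between -0.24 and 0.065, so changes at 24H of the size measured at 48H fell outside them.

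At 48H, 9 of the 29 members (31.0%) rose and 0 fell against CTRL: HLA-B, HLA-C, HLA-E, HLA-F, B2M, PSMB8, PSMB9, TAP1 and TAP2. Across all genes, 10.4% changed in either direction and 5.13% rose. DESeq2 called 8 of these 9, all but B2M, and 0 lower, and at an unadjusted p under 0.05 15 members were higher and 0 lower, against 1942 and 1863 of 14740 genes. In 15 members the 3 libraries at 48H all lay above the 3 CTRL libraries, against 14.7% of all genes. The changes were small: 2 members, HLA-B and HLA-F, passed an adjusted p under 0.05 and also changed by 1.4-fold or more, the study's threshold, which 1.8% of all genes passed. HLA-B lay just inside it, with a log2 fold change of 0.49 that equals the threshold to 2 decimals. The median log2 fold change of the members was 0.13, beside 0.0040 over all genes. Without TMAO 24H replicate 1, the library rich in ribosomal RNA, 0 members passed at 24H, 6 at 48H against CTRL and 7 at 48H against 24H, beside 8, 1271 and 652 of 14899 genes. In bulk RNA, more transcript per cell and a larger share of cells with the transcript cannot be told apart. The plots of library values and of fold changes show these 9 rises by role.

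**Figure D1:**
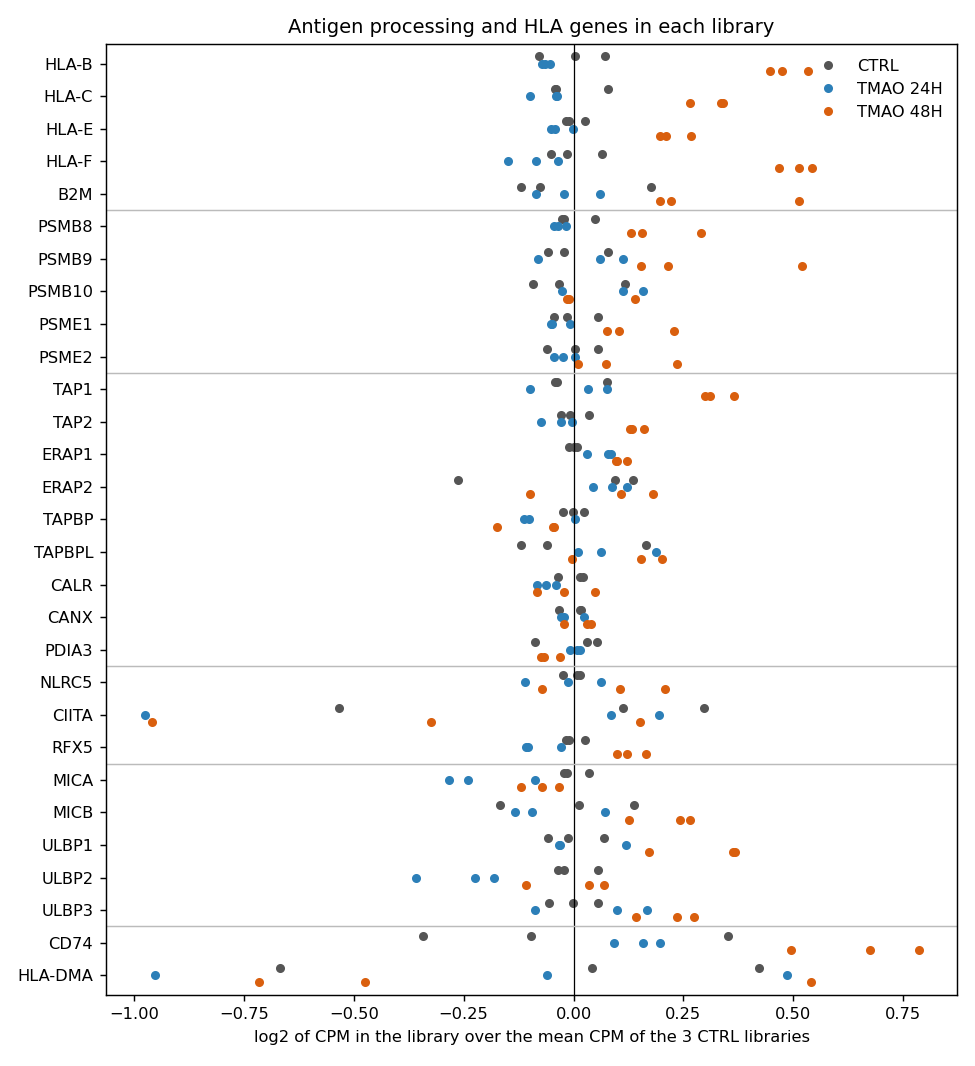
Each point is 1 library, the horizontal axis is the log2 of its CPM over the mean of the 3 CTRL libraries, and grey lines separate the roles. The 3 libraries at 48H stand to the right of all CTRL and 24H libraries for the 4 HLA heavy chains drawn, B2M, PSMB8, PSMB9, TAP1 and TAP2, and TMAO 48H replicate 1 stands furthest right for 7 of these 9, all but HLA-E and TAP2, by the widest gap for B2M, PSMB8 and PSMB9.

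The HLA class I heavy chains rose together. HLA-B, a classical heavy chain, had 261, 276 and 289 CPM in the 3 CTRL libraries, 263, 265 and 262 at 24H and 398, 383 and 375 at 48H. The 48H libraries lay above all others without overlap and the 24H libraries lay among the controls (log2 fold change 0.49, SE 0.044, adjusted p = 4.10e-05 at 48H against CTRL). HLA-C, the other classical heavy chain listed, had 359, 391 and 359.9 CPM in CTRL, 345, 360.0 and 361 at 24H and 468, 467 and 445 at 48H. Its 48H libraries again stood above the rest (log2 fold change 0.31, SE 0.045, adjusted p = 0.000973). HLA-E, a non-classical heavy chain read by the inhibitory NK receptor CD94/NKG2A, had 314, 324 and 316 CPM in CTRL, 307, 309 and 317 at 24H and 364, 383 and 368 at 48H, where the libraries lay above both other groups (log2 fold change 0.23, SE 0.038, adjusted p = 0.00295). HLA-F, a non-classical heavy chain of low level, had 11.5, 11.8 and 12.5 CPM in CTRL, 11.2, 11.6 and 10.7 at 24H and 17.3, 16.5 and 17.0 at 48H. Its rise of 1.42-fold had the largest log2 fold change of the 9 members called (log2 fold change 0.51, SE 0.071, adjusted p = 0.000844), with a 95% interval of 0.35 to 0.66 that overlapped the 0.39 to 0.58 of HLA-B. HLA-F shares its locus with the antisense gene HLA-F-AS1, whose reads cannot be told apart without strand. HLA-G, the non-classical heavy chain of the placenta, was at or below 0.166 CPM in every library and was not tested.

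B2M, the light chain shared by all class I molecules, had 996, 1025 and 1222 CPM in CTRL, 1065, 1127 and 1019 at 24H and 1543, 1239 and 1262 at 48H. The 48H libraries lay above CTRL, but 2 of them by little, and TMAO 48H replicate 1 stood far above the others (log2 fold change 0.32, SE 0.091, adjusted p = 0.0425). The call was lost in 7 of 9 fits that left out a single library, which were CTRL replicates 1 and 2, each of the 3 libraries at 24H, and TMAO 48H replicates 1 and 2 (adjusted p from 0.0532 to 0.148). Without TMAO 48H replicate 1 its log2 fold change was 0.21. The adjusted p for B2M was 0.0624 under DESeq2, 0.0944 with GC offsets and 0.0794 in a fit of the 2 groups compared, and the call held in 7 of 19 alternatives.

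Heavy chains share long stretches of sequence, and the deposited estimates for HLA-B and HLA-C were not whole numbers in 9 of 9 libraries (tolerance 0.01), as happens where reads are divided among genes in the counting, and the same held for TAP1, PDIA3 and MICA. The counts of HLA-B, HLA-C, HLA-E, HLA-F and HLA-G were therefore also summed into 1 value. The sum was 945, 1002 and 978 CPM in CTRL, 927, 946 and 951 at 24H and 1248, 1249 and 1205 at 48H. It rose at 48H (log2 fold change 0.34, SE 0.047, adjusted p = 0.000762) and did not pass the test at 24H (log2 fold change -0.051, SE 0.047, adjusted p = 0.898). Within a library, the ratio of HLA-B to HLA-C was 0.745 ± 0.0520 (SD, n = 3) in CTRL and 0.838 ± 0.0163 (SD, n = 3) at 48H. That of HLA-B to HLA-E was 0.866 ± 0.0450 (SD, n = 3) in CTRL and 1.04 ± 0.0487 (SD, n = 3) at 48H. For both ratios the 48H libraries did not overlap with CTRL, which gives p = 0.1 in a two-sided exact permutation test. This is the smallest p the design allows for any 1 of the 10 ratios computed, and not all 10 reached it. The ratio of HLA-B to B2M overlapped between CTRL (0.262, 0.269 and 0.237) and 48H (0.258, 0.309 and 0.297).

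Among the 5 genes of the immunoproteasome and its activator PA28, 2 rose at 48H. PSMB8 encodes the subunit that takes the place of PSMB5 in immunoproteasomes, and had 51.7, 54.4 and 51.8 CPM in CTRL, 52.0, 51.3 and 51.0 at 24H and 64.4, 58.6 and 57.6 at 48H. The 48H libraries lay above both other groups, which overlapped (log2 fold change 0.19, SE 0.049, adjusted p = 0.0246). The call held in 13 of 19 alternatives. The adjusted p was 0.0728 in a fit of the 2 groups compared and 0.0539 to 0.0829 without CTRL replicate 1, CTRL replicate 3, TMAO 48H replicate 1 or TMAO 48H replicate 2. PSMB9, which takes the place of PSMB6, had 26.9, 26.3 and 28.9 CPM in CTRL, 28.5, 29.6 and 25.9 at 24H and 39.3, 31.8 and 30.5 at 48H. TMAO 48H replicate 1 was far above the other libraries of its group, which lay a little above the highest CTRL library (log2 fold change 0.31, SE 0.087, adjusted p = 0.0422). Leaving out TMAO 24H replicate 1 or 2, any 1 CTRL library, or TMAO 48H replicate 1 or 2 put its adjusted p at 0.0557 to 0.140, and without TMAO 48H replicate 1 its log2 fold change was 0.18. The call for PSMB9 held in 8 of 19 alternatives, and was also lost with GC offsets (adjusted p = 0.0522) and in a fit of the 2 groups compared (0.0678).

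PSMB10, the third immunoproteasome subunit, which takes the place of PSMB7, had 26.9, 28.1 and 31.1 CPM in CTRL, 31.0, 32.0 and 28.2 at 24H and 31.6, 28.4 and 28.5 at 48H. The groups overlapped, and the 95% interval of its log2 fold change at 48H was -0.11 to 0.19 (adjusted p = 0.774). PSME1 and PSME2 encode the subunits of PA28. PSME1 had 141, 151 and 143 CPM in CTRL, 139.8, 144 and 140.0 at 24H and 169.8, 156 and 153 at 48H, where the libraries lay above both other groups. PSME2 had 68.9, 72.1 and 74.7 CPM in CTRL, 72.1, 69.7 and 70.8 at 24H and 84.6, 75.7 and 72.4 at 48H, with overlap. Neither passed the test against CTRL (log2 fold changes 0.14 and 0.11, adjusted p = 0.0751 and 0.234), and PSME1 did so without TMAO 48H replicate 3 (adjusted p = 0.0482). TMAO 48H replicate 1 was the highest library of its group for all 5 genes. In the same libraries, 0 of the 14 constitutive 20S subunits passed the test at 48H (median log2 fold change -0.016, range -0.15 to 0.081, with 1 lower at an unadjusted p under 0.05, PSMA7, named after its values were seen, which DESeq2 called lower). Against the constitutive subunit each replaces, the ratio of PSMB8 to PSMB5 was 0.520 ± 0.0125 (SD, n = 3) in CTRL and 0.621 ± 0.0312 (SD, n = 3) at 48H, and that of PSMB9 to PSMB6 was 0.275 ± 0.0186 (SD, n = 3) and 0.335 ± 0.0416 (SD, n = 3). Both ratios were higher in 3 of 3 libraries (exact permutation p = 0.1 each). PSMB10 to PSMB7 was 0.247 ± 0.0146 (SD, n = 3) in CTRL and 0.240 ± 0.00553 (SD, n = 3) at 48H, and overlapped (exact permutation p = 0.7).

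**Figure D2:**
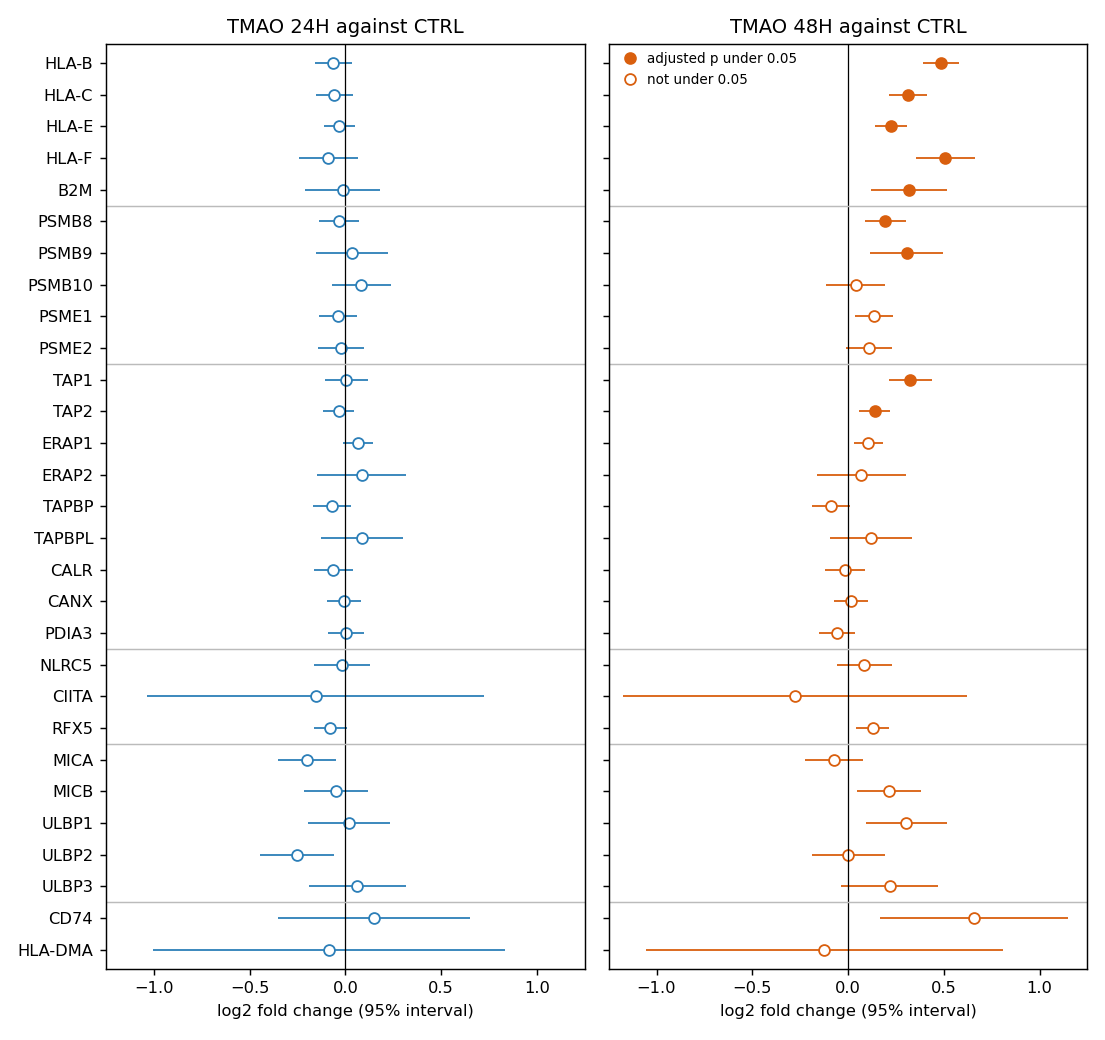
Points are log2 fold changes against CTRL from edgeR with 95% intervals, at 24H on the left and 48H on the right, and filled points have an adjusted p under 0.05. No point is filled at 24H, and 9 are filled at 48H, all to the right of 0, from TAP2 at 0.14 to HLA-F at 0.51.

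Of the 9 genes of peptide transport, trimming and loading, TAP1 and TAP2 rose, and these encode the 2 chains of the TAP transporter. TAP1 had 66.2, 71.7 and 66.0 CPM in CTRL, 63.5, 69.5 and 71.7 at 24H and 87.6, 84.4 and 83.7 at 48H, where the libraries lay above both other groups (log2 fold change 0.33, SE 0.052, adjusted p = 0.00194). TAP2 had 132, 128 and 126 CPM in CTRL, 122, 126 and 129 at 24H and 141, 144 and 141 at 48H. Its 48H libraries also lay above both other groups, which overlapped, and the change was smaller (log2 fold change 0.14, SE 0.037, adjusted p = 0.0311). The call held in 9 of 19 alternatives. It was lost with no expression filter (adjusted p = 0.0649) and in a fit of the 2 groups compared (0.0903). The adjusted p for TAP2 was 0.0501 to 0.111 without TMAO 24H replicate 1 or 2, CTRL replicate 2 or 3, or TMAO 48H replicate 2 or 3. Within a library, TAP1 to TAP2 was 0.502, 0.560 and 0.522 in CTRL and 0.622, 0.586 and 0.592 at 48H, higher in 3 of 3 libraries (exact permutation p = 0.1). TAP1 and PSMB9 are neighbours transcribed away from each other from a shared upstream region, and their ratio overlapped between CTRL (2.46, 2.73 and 2.29) and 48H (2.23, 2.66 and 2.75).

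The remaining loading genes did not pass the test at 48H. TAPBP encodes tapasin, which bridges TAP to the heavy chain, and had 142, 144 and 139.7 CPM in CTRL, 142, 131 and 132 at 24H and 126, 138 and 137 at 48H. The 48H libraries lay below CTRL (log2 fold change -0.088, 95% interval -0.19 to 0.012, adjusted p = 0.254), and TAPBP overlaps RGL2 in the genome. ERAP1, the aminopeptidase that trims peptides in the endoplasmic reticulum, lay at 112, 114 and 112 CPM at 48H, above 105, 104 and 105 in CTRL, with a log2 fold change of 0.11 (adjusted p = 0.0778). Its relative ERAP2 and the tapasin-like TAPBPL had log2 fold changes of 0.069 and 0.12 (adjusted p = 0.742 and 0.488). The abundant lectin chaperones CALR and CANX and the disulfide isomerase PDIA3 were between -0.056 and 0.016 at 48H, with intervals that together spanned -0.15 to 0.10. Against 780 of all 14740 tested genes, 3 of 11 other folding and quality control genes of the endoplasmic reticulum fell at 48H, and 0 rose. They were PRKCSH, the beta subunit of glucosidase II (log2 fold change -0.21, SE 0.041, adjusted p = 0.00594), P4HB, a disulfide isomerase (log2 fold change -0.17, SE 0.048, adjusted p = 0.0379), and CNPY3, a chaperone of Toll-like receptors (log2 fold change -0.15, SE 0.043, adjusted p = 0.0486). The call for PRKCSH was lost with offsets for GC content and that for P4HB in 11 of 19 alternatives (highest adjusted p = 0.210), among them without any 1 library at 24H, CTRL replicate 1 or 2, or TMAO 48H replicate 2 or 3. The call for CNPY3 held in 5 of 19 (highest adjusted p = 0.359), and leaving out any 1 library but TMAO 48H replicate 1 ended it. The median of the 11 genes was -0.066, and DESeq2 called 4 of them lower and 0 higher. Among 7 cytosolic and endosomal peptidases and 8 other proteasome activator and assembly genes, edgeR and DESeq2 called 0 at 48H, and 3 and 0 of them had an unadjusted p under 0.05.

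**Figure D3:**
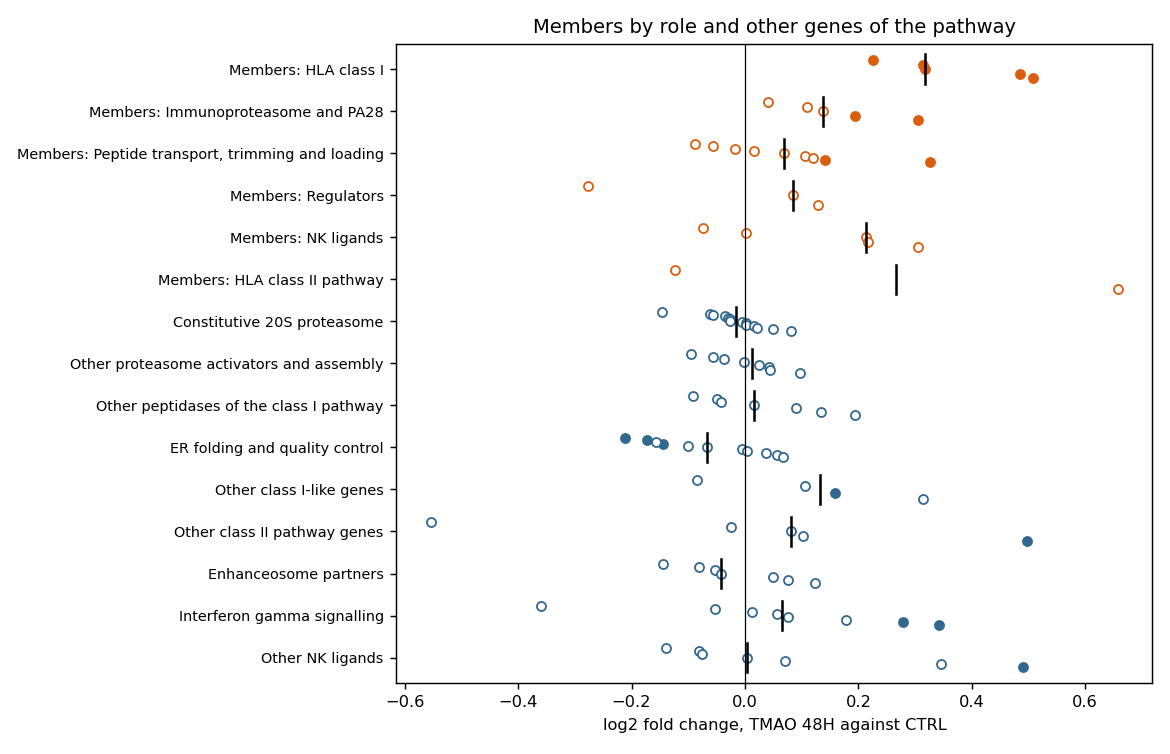
Each point is 1 tested gene at its log2 fold change at 48H against CTRL, filled where the adjusted p was under 0.05, with members in orange, other pathway genes in blue and a black bar at each median. The HLA class I members have the highest median, 0.32, and the constitutive 20S proteasome genes lie between -0.15 and 0.081 with none filled.

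Against CTRL, no regulator among the members passed the test, although RFX5 did at 48H with GC offsets (adjusted p = 0.0496). NLRC5, the transactivator of class I genes, had 41.8, 40.7 and 41.6 CPM in CTRL, 41.1, 38.3 and 43.2 at 24H and 39.4, 44.5 and 47.9 at 48H. The groups overlapped (log2 fold change 0.086 at 48H, 95% interval -0.060 to 0.23, adjusted p = 0.462). RFX5, a DNA-binding partner of NLRC5 and CIITA, had 83.1, 85.5 and 83.5 CPM in CTRL, 82.4, 78.0 and 78.2 at 24H and 91.4, 94.2 and 90.04 at 48H. Its 24H libraries lay below CTRL and its 48H libraries above (log2 fold change 0.13, SE 0.040, adjusted p = 0.0576 at 48H against CTRL). CIITA, the class II transactivator, was at 0.640, 0.360 and 0.563 CPM in CTRL, 0.552, 0.596 and 0.265 at 24H and 0.268, 0.579 and 0.416 at 48H, where single counts decide the value (adjusted p = 0.729 at 48H). Of 7 other partners at class I and II promoters, such as RFXAP, RFXANK and the NF-Y subunits, edgeR and DESeq2 called 0 at 48H, with 1 lower at an unadjusted p under 0.05. JAK2, a kinase of the interferon gamma receptor, rose from 21.7 ± 1.49 (SD, n = 3) to 26.3 ± 1.07 CPM (SD, n = 3) at 48H (log2 fold change 0.28, SE 0.063, adjusted p = 0.0146), and its call was lost without CTRL replicate 2 or TMAO 48H replicate 2 (highest adjusted p over 19 alternatives 0.0837). IRF1, which is not called and was named after its values were seen, had a log2 fold change of 0.056 (95% interval -0.049 to 0.16).

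None of the 5 NK cell ligands passed the test in either comparison with CTRL. MICA and MICB are stress-induced ligands of the activating receptor NKG2D. MICA had 17.2, 17.1 and 17.8 CPM in CTRL, 16.3, 14.7 and 14.2 at 24H and 16.0, 16.5 and 16.9 at 48H, below CTRL in every treated library (log2 fold change -0.073 at 48H, adjusted p = 0.554). MICB had 36.0, 33.0 and 29.1 CPM in CTRL, 29.8, 30.6 and 34.4 at 24H and 35.7, 38.7 and 39.3 at 48H, with overlap (log2 fold change 0.21, SE 0.078, adjusted p = 0.101 at 48H). The other NKG2D ligands ULBP1, ULBP2 and ULBP3 lay between 3.83 and 9.96 CPM over the 9 libraries. Their log2 fold changes at 48H were 0.30, 0.0012 and 0.22 (adjusted p = 0.0670, 0.996 and 0.263), and ULBP1 passed without TMAO 48H replicate 1 (adjusted p = 0.0452). In a list of 7 other ligands of lymphocyte receptors, 1 rose at 48H by edgeR. This was CD274, which encodes PD-L1, a ligand of the T cell receptor PD-1, with 17.8, 18.2 and 18.7 CPM in CTRL, 17.2, 15.4 and 16.0 at 24H and 24.9, 26.1 and 25.9 at 48H (log2 fold change 0.49, SE 0.063, adjusted p = 0.000434).

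The class II members were at low levels in these libraries. HLA-DRA, the alpha chain of HLA-DR, had 0 counts in all 9 libraries, which allows up to 0.0869 to 0.115 CPM per library (3 counts, counting error only). HLA-DPA1 was at or below 0.0960 CPM. CD74, the invariant chain, had 0.864, 1.18 and 0.729 CPM in CTRL, 1.03, 0.984 and 1.06 at 24H and 1.30, 1.59 and 1.48 at 48H, above CTRL without overlap but short of the threshold (log2 fold change 0.66, SE 0.23, adjusted p = 0.0832). HLA-DMA, which helps load class II, ranged from 0.353 to 0.995 CPM with full overlap. Of 5 other class II pathway genes tested, CTSS, a lysosomal protease that cuts the invariant chain, rose from 7.15 ± 0.637 (SD, n = 3) to 10.1 ± 0.410 CPM (SD, n = 3) at 48H (log2 fold change 0.50, SE 0.10, adjusted p = 0.00782). Among 4 class I-like genes, FCGRT, the neonatal Fc receptor that also pairs with B2M, rose at 48H (log2 fold change 0.16, SE 0.046, adjusted p = 0.0457), a call that held in 8 of 19 alternatives (highest adjusted p = 0.150) and was lost without any 1 library at 24H, CTRL replicate 1 or 2, or TMAO 48H replicate 2 or 3.

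**Figure D4:**
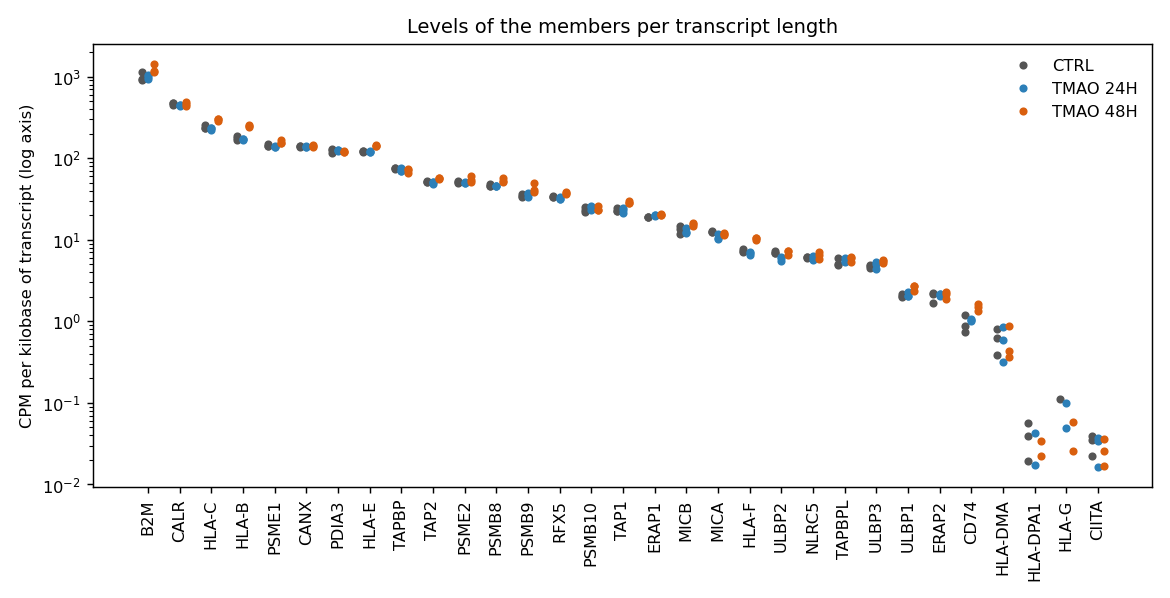
CPM per kilobase of transcript on a log axis for each member with counts, ordered by the CTRL mean, with 1 point per library and libraries at 0 left out. B2M stands highest with a CTRL mean of 1000.2, and CD74, HLA-DMA, HLA-DPA1, HLA-G and CIITA have CTRL means below 1.

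Per transcript length, B2M had the highest level in CTRL at 1000.2 CPM per kilobase, CALR followed at 467, and HLA-C and HLA-B stood at 241 and 178. PSME1, CANX, PDIA3 and HLA-E followed at 144, 139.8, 124 and 122. TAP2 stood at 51.6 and TAP1 at 22.98, and the immunoproteasome subunits PSMB8, PSMB9 and PSMB10 at 46.8, 35.0 and 23.5. On this scale NLRC5 was at 6.11 and CD74 at 0.942. The plot of levels shows that the 9 members that rose at 48H spanned nearly the whole range above HLA-F, at 7.28 CPM per kilobase.

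The 2 time-points were also compared directly, since a call at 48H and none at 24H does not show a difference between them. At 48H, 10 of the 29 members were higher than at 24H and 0 lower, against 7.52% of all genes in either direction and 3.77% higher. DESeq2 called 11 higher and 0 lower, and at an unadjusted p under 0.05 16 were higher and 0 lower, against 1716 and 1542 of 14740 genes. The members were the 4 tested heavy chains, B2M, PSMB8, TAP1, TAP2, PSME1 and RFX5. HLA-B (log2 fold change 0.55, SE 0.044, adjusted p = 7.16e-06), HLA-F (log2 fold change 0.60, SE 0.071, adjusted p = 0.000157) and HLA-C (log2 fold change 0.37, SE 0.045, adjusted p = 0.000180) led in size, ahead of B2M (log2 fold change 0.33, adjusted p = 0.0423), TAP1 (log2 fold change 0.32, adjusted p = 0.00184) and HLA-E (log2 fold change 0.26, adjusted p = 0.00100). RFX5 was higher at 48H than at 24H (log2 fold change 0.21, SE 0.040, adjusted p = 0.00611), with all 48H libraries above all 24H libraries. PSMB9 and MICB fell short in edgeR (log2 fold changes 0.27 and 0.26, adjusted p = 0.0803 and 0.0607). DESeq2 called both (adjusted p = 0.0478 and 0.0305) and did not call B2M (0.0665). MICB also passed in edgeR's fit of the 2 groups compared (adjusted p = 0.0410). Single libraries moved 6 of these results. B2M was lost without any 1 of the 3 libraries at 24H, CTRL replicate 2, or TMAO 48H replicate 1 or 2 (adjusted p from 0.0529 to 0.158), and PSME1 without any 1 at 24H, or TMAO 48H replicate 1 or 2 (0.0723 to 0.143). PSMB8 was lost without TMAO 24H replicate 2 or 3 (0.0516 to 0.0587) and TAP2 without TMAO 24H replicate 1 or TMAO 48H replicate 2 (0.0564 to 0.0831). MICB passed without CTRL replicate 1 or 3 or TMAO 48H replicate 1 (0.0304 to 0.0471), and PSMB9 without TMAO 48H replicate 3 (0.0340). The difference between the time-points and the comparison with CTRL share the 48H libraries.

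**Figure D5:**
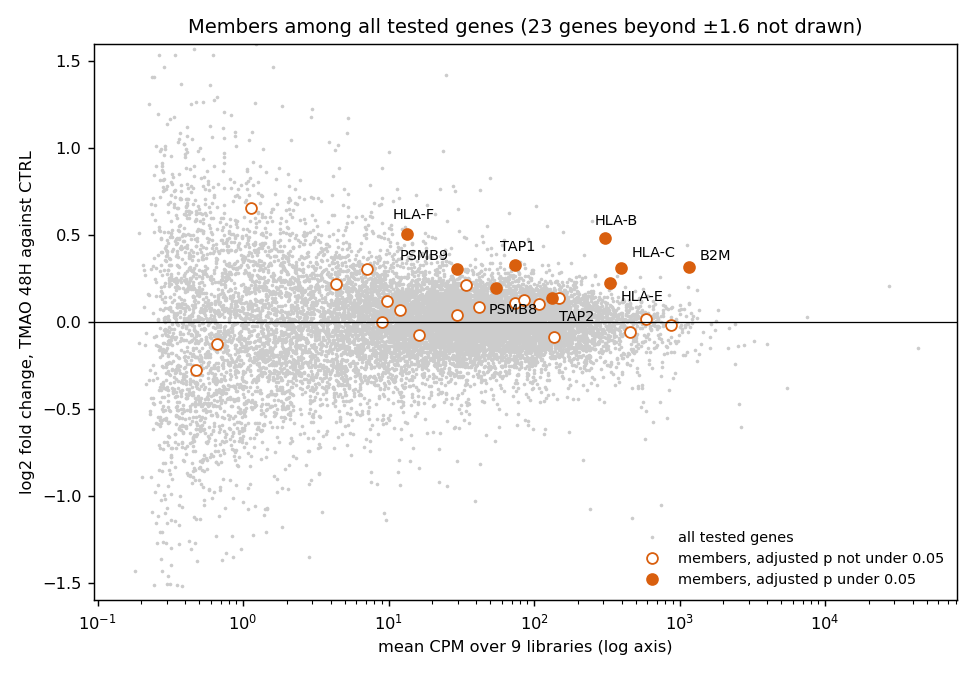
Mean CPM over the 9 libraries (log axis) against the log2 fold change at 48H for all tested genes (grey) and the members (orange, filled where the adjusted p was under 0.05). HLA-B, HLA-C, HLA-E and B2M, all above 100 CPM, lie toward the upper edge of the grey cloud, and PSMB8 and TAP2 lie inside it.

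In the plot of all genes, the size of a change can be read against genes of like level. HLA-B, HLA-C, HLA-E, HLA-F and TAP1 had an adjusted p under 0.05 at 48H against CTRL in all 19 alternative fits, with log2 fold changes from 0.45 to 0.55 for HLA-B, 0.29 to 0.39 for HLA-C, 0.20 to 0.33 for HLA-E, 0.48 to 0.54 for HLA-F and 0.30 to 0.37 for TAP1. On chromosome 6, which holds the HLA region, lie 18 of the 32 members, and 8 of the 9 that rose were there, B2M on chromosome 15 being the exception. The 18 include HLA-G, HLA-DRA and HLA-DPA1, which were not tested. Not all 18 lie in the HLA region, since ULBP2 is far from HLA-B (promoter windows from chr6:149941890 and chr6:31357310).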

How the data were processed

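RNA of HMEC-1 was sequenced in 9 libraries, 3 each for CTRL, TMAO 24H and TMAO 48H, grouped by their labels. Reads were processed by the authors in the nf-core RNAseq pipeline. What the authors deposited are estimated counts for each gene, which need not be whole and were not normalised. The submitters' processing notes name Trim Galore, and the quantifier, genome build and annotation are not given in the sources used here. Whether the counting used strand is not stated there either, so reads of overlapping genes cannot be separated.

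The counts were rounded to whole numbers and analysed in R 4.3.3 with edgeR 4.0.16: filterByExpr (minimum count 10), TMM factors, and glmQLFit (legacy = FALSE) with glmQLFTest on the 9 libraries together, with Benjamini-Hochberg adjustment over 14740 genes and a threshold of 0.05. Standard errors came from the F statistic. DESeq2 1.42.0, other filters and scalings, the legacy quasi-likelihood fit, a fit of the 2 groups compared, a replicate block, GC offsets, removal of ribosomal RNA genes and leaving out each library in turn were the alternatives. The procedure was also run on simulated counts, with the same relative spread between libraries set for every gene. Because of that setting, the run does not measure how reliable the calls reported here are. GC content (13241 of 14740 tested genes, 89.8%) and transcript lengths came from GENCODE release 29, and promoter windows from RefSeq on GRCh38.p14. Total counts per library were 25205756 to 36927373, and replicates of a group differed by more than sampling noise in every pair.

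The members and lists were chosen with earlier results of these data known. Every library's value is given for members with an adjusted p under 0.05 in any comparison and for the main genes of each role, and from each other list at most 4 genes with the lowest adjusted p at 48H among those under 0.05 were named. PSMA7, IRF1 and the cell type markers named for their level fall outside this rule. One result of the interferon gamma signalling list is not reported here.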

Additional observations from a re-analysis of the deposited data

Results flagged for a closer look

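For 10 members the level at 48H differed from that at 24H by a direct test of the difference (edgeR's quasi-likelihood test, 3 libraries against 3). The log2 fold change of 48H against 24H was 0.60 for HLA-F (adjusted p = 0.000157), 0.55 for HLA-B (adjusted p = 7.16e-06), 0.37 for HLA-C (adjusted p = 0.000180), 0.33 for B2M (adjusted p = 0.0423) and 0.32 for TAP1 (adjusted p = 0.00184). It was 0.26 for HLA-E (adjusted p = 0.00100), 0.23 for PSMB8 (adjusted p = 0.0131), 0.21 for RFX5 (adjusted p = 0.00611), 0.18 for TAP2 (adjusted p = 0.0117) and 0.17 for PSME1 (adjusted p = 0.0366). For all 10, every library at 48H lay above every library at 24H. Over the 19 alternatives, the adjusted p had a maximum of 0.158 for B2M, 0.143 for PSME1, 0.0831 for TAP2 and 0.0587 for PSMB8, and stayed under 0.05 for the other 6. Whether time in culture has a part in these differences was not tested, since no control of either time-point is marked as such.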

How the results depend on the processing

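The number of members past an adjusted p of 0.05 at 48H against CTRL was 9, and became 2 when a change of 1.4-fold or more was also required, 5 in a fit of the 2 groups compared, 5 with a replicate block, and 5 to 9 with a single library left out (5 without TMAO 48H replicate 2). At 48H against 24H it was 10, and became 2 with the 1.4-fold condition and 7 to 11 with a single library left out. It stayed at 0 for 24H against CTRL in every alternative. The members' median log2 fold change at 48H against CTRL was 0.13, and became 0.15 with GC offsets (0.15 also with GC offsets and replicate block) and 0.12 to 0.16 with a single library left out. At 48H against 24H it was 0.17, and became 0.15 with no expression filter and 0.15 to 0.20 with a single library left out. The HLA class I sum kept its side of the threshold in all alternatives. Member values under the alternatives, 1650 in all, had the other sign in 67 cases, in none of which the member had passed 0.05 in the edgeR fit reported or passed it in the alternative.

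Replicate numbers were shared between groups, but deviations of libraries with the same number did not go together (correlations of -0.12 to 0.091 over 9 pairs, against -0.10 to 0.16 over 18 pairs of different numbers), and 2 of 9 libraries correlated best with their own number, so the block was used only as an alternative. At 48H against CTRL the block ended the calls for PSMB8 (adjusted p = 0.0553), PSMB9 (0.0746), TAP2 (0.0811) and B2M (0.0974), and GC offsets with the block those for TAP2 (0.0548), PSMB9 (0.0871) and B2M (0.180). With the replicate block, 8 members passed 0.05 at 48H against 24H, and over all genes the count went from 1536 to 944 at 48H against CTRL, from 1109 to 730 at 48H against 24H and from 14 to 1 at 24H against CTRL. Over all genes, a fit of the 2 groups compared gave 981 at 48H against CTRL and 22 at 24H, GC offsets with the block 661, 691 and 8, DESeq2 56 at 24H, and leaving out a single library 700 to 1594 at 48H against CTRL, 558 to 1282 at 48H against 24H and 0 to 24 at 24H against CTRL. The cause of these shifts was not tested.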
